A study of Mus musculus with 6 samples.

Results

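The translation initiation factors of mouse liver were described here as the protein-coding genes of the deposited table whose symbols begin with Eif and a digit from 1 to 6, without the eIF2 kinases (Eif2ak). This name rule took 51 of 22046 protein-coding genes, in a table of 54532 genes. A further 10 rows with such names were pseudogenes or noncoding and were left out. All samples were whole liver from mice put on high-fat food at 6 weeks of age and kept on it for 12 weeks. The HKO group (3 libraries) carried a knockout of G3bp1 specific to hepatocytes, so the other liver cells keep the gene. The Flox group (3 libraries) were G3bp1-Flox litter controls. The Cre line, strain and sex do not appear in the labels, and no label ties a library to an animal of its own. The spread behind the p-values is thus that of these libraries and may be technical.

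Initiation factors bring the small ribosomal subunit, the initiator tRNA and a capped mRNA together at a start codon. The eIF4F complex (eIF4E on the cap, the eIF4G scaffold and the eIF4A helicase) prepares the mRNA, with eIF4B and eIF4H as helicase cofactors and the eIF4E-binding proteins as inhibitors. eIF2 carries the initiator tRNA, eIF2B reloads eIF2 with GTP, and eIF3 holds the small subunit and links it to eIF4G. G3BP1, the deleted protein, nucleates stress granules, in which stalled initiation complexes gather. The study asked how G3BP1 affects NASH, an inflamed fatty liver.

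No initiation factor gene passed the test for a difference between the groups. Of the 51 genes, 48 passed the filter on low values (at least 0.5 FPKM in at least 3 libraries, FPKM being reads scaled to gene length and library size), and 0 of the 48 passed the test at an adjusted p under 0.05. The test was limma on log2(FPKM + 1), HKO against Flox, with Benjamini-Hochberg adjustment over all 11856 genes tested, of which 0.00843% were called. Among the 48, the smallest adjusted p was 0.667 (limma). The deleted gene G3bp1 did not pass this test either (log2 difference -0.83, adjusted p = 0.11 in limma). The count of 0 members thus does not show that their levels were equal in the groups. None of the members (0 of 48) had an unadjusted p under 0.05, beside 7.62% of all genes tested. With limma's voom on reads recovered from the FPKM, 0 members were again called, and 1 (Eif2b3) had an unadjusted p under 0.05, beside 7.75% of all genes. Under TPM 5 members did so (Eif4b, Eif4ebp2, Eif4g1, Eif4g2 and Eif4h), beside 11.7% of all genes. With array weights there were 4, beside 24.1%, and with quantile normalization 3, beside 7.73%. Means were higher in HKO for 23 members and lower for 25 (52.1%, beside 51.2% lower of all genes tested). The median difference was -0.02 on the log2(FPKM + 1) scale, beside -0.01 over all genes tested. The largest differences were 0.24 for Eif2s3x and -0.22 for Eif2b3. That of Eif2s3x was 0.13 without HKO 2, 0.37 without Flox 3 and 0.38 without HKO 1. That of Eif2b3 was -0.38 with a pseudocount of 0.1 and -0.41 with voom, where it was larger in size than that of Eif2s3x (0.26).

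The differences were also small in size. A difference of at least 0.2 in either direction was seen in 3 of 48 members (6.25%), and in 28.7% of all genes tested. The median SD of a gene between libraries of 1 group was 0.12 on that scale for the members, 0.158 for all genes tested and 0.157 for the 2432 genes at like levels (7.93 to 30.7 FPKM). The 95% interval of the difference held 0 for all 48 members, and for 43 of them it lay wholly between -0.5 and 0.5. The lowest bound over all members was -0.66, for Eif3g, and the highest 0.64, for Eif2s3x. The intervals of all 48 members are for single genes, without adjustment over the 11856 genes tested. They thus do not give the size of difference that the adjusted test would have called. The difference of G3bp1 was larger in size than either bound and did not pass (-0.83, SE 0.088, adjusted p = 0.11 in limma).

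**Figure D1:**
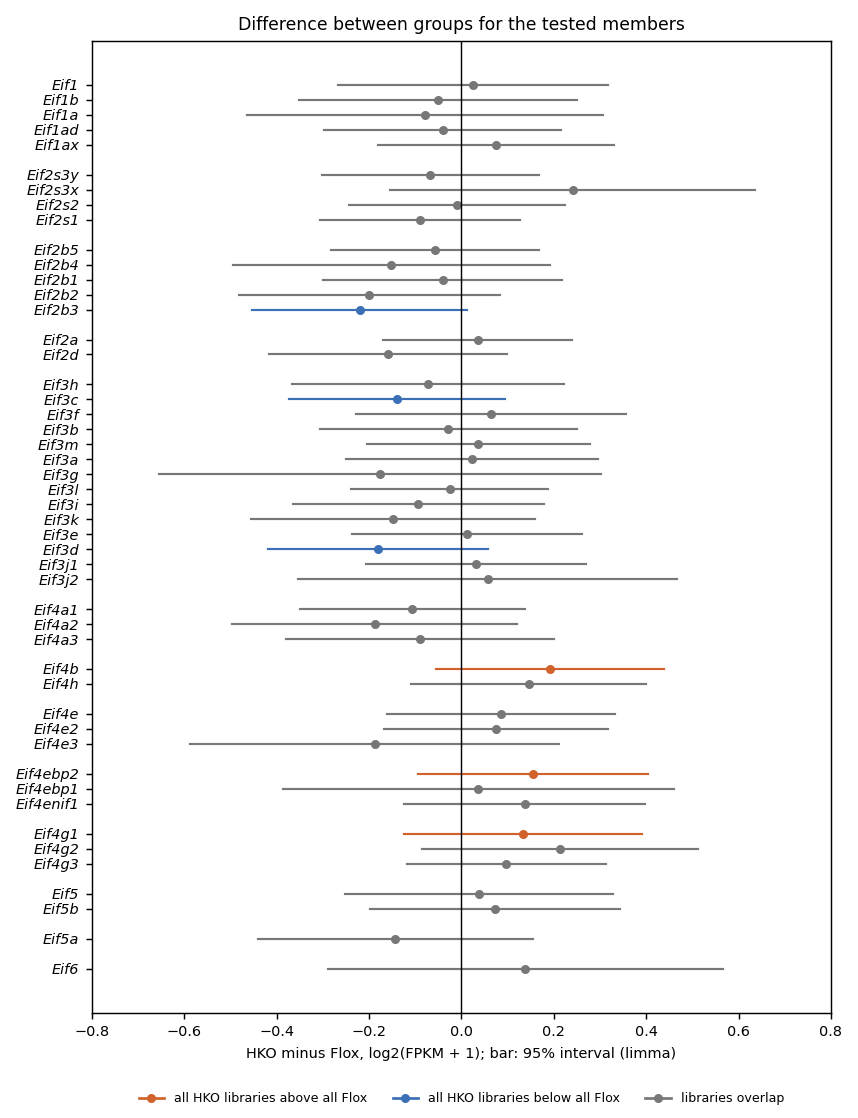
Difference between HKO and Flox on the log2(FPKM + 1) scale for the 48 tested members, ordered by factor and by level (points) with 95% intervals from limma (bars). Orange and blue mark the 6 tested members whose groups did not overlap; every bar crosses 0, and the points lie between -0.22 and 0.24.

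The libraries themselves were checked first. Recovered reads summed to 15804115 to 17954066 per library, and the members took 0.471%, 0.463% and 0.4998% of them in Flox and 0.524%, 0.516% and 0.507% in HKO. As a share of reads the members thus lay higher in every HKO library, while their summed FPKM overlapped. The size by which FPKM had been divided came to 0.972, 0.934 and 1.03 times the summed reads in Flox and 1.06, 1.01 and 1.03 times in HKO. G3bp1 stood at 8.46, 8.46 and 9.10 FPKM in Flox and 4.66, 4.27 and 4.44 in HKO, without overlap, as the labels require (log2 difference -0.83, adjusted p = 0.11 in limma). Hepatocyte markers such as Alb and Apoa1 were present in every library, with summed levels of 48656 to 50679 FPKM in Flox and 42315 to 51951 in HKO. All 10 Kupffer cell markers had a higher mean in HKO (summed 147 to 269.6 FPKM in Flox and 219.9 to 359.9 in HKO), and all 5 erythroid markers a lower one (295 to 333 and 136 to 269.6 FPKM). Summed lymphocyte markers ran from 2.63 to 3.76 FPKM in Flox and, without overlap, from 3.96 to 5.11 in HKO. Neutrophil markers ran from 1.93 to 5.44 and 1.70 to 3.29, with Ly6g at 0. Both sums rest on few reads, such as 10 to 23 per library for the lymphocyte marker Cd79b. Only 4 of 8 lymphocyte and 2 of 4 neutrophil markers passed the filter on low values. Endothelial, stellate and cholangiocyte sums overlapped between the groups, and 0 markers of any list passed. The part of these cells in the values below was not tested, and in whole tissue fewer cells of a type and less RNA per cell cannot be told apart.

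The members covered a wide range of levels. Levels of different genes are compared per deposited gene length, and whether that length fits the expressed mRNA was not tested. Eif5a and Eif1 were highest, at 144 and 140 FPKM on average over the 6 libraries. They were followed by Eif3h, Eif4g1, Eif4b and Eif4a1 at 58.7 to 67.2 FPKM. Only 2 of the 49 steps between neighbours in this order had 6-library ranges that did not overlap. They led from Eif1 down to Eif3h and from Eif4e3 down to Eif2b3. Such ranges do not compare 2 genes within a library, so neighbours with overlapping ranges can still differ. Eif2b5, for example, lay above its neighbour Eif2b4 in all 6 libraries although their ranges overlapped. Summed over the 51 genes, the level was 1235 ± 48.4 FPKM in Flox and 1230 ± 35.6 in HKO (SD, n = 3). Flox 2 was the highest library for 19 of the 48 tested members, more than any other library, and the lowest for 7. The eIF3 genes held 26.4% of this sum, eIF1 and eIF1A 15.7%, eIF5A 11.7%, eIF4G 9.62% and eIF4A 9.43%.

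**Figure D2:**
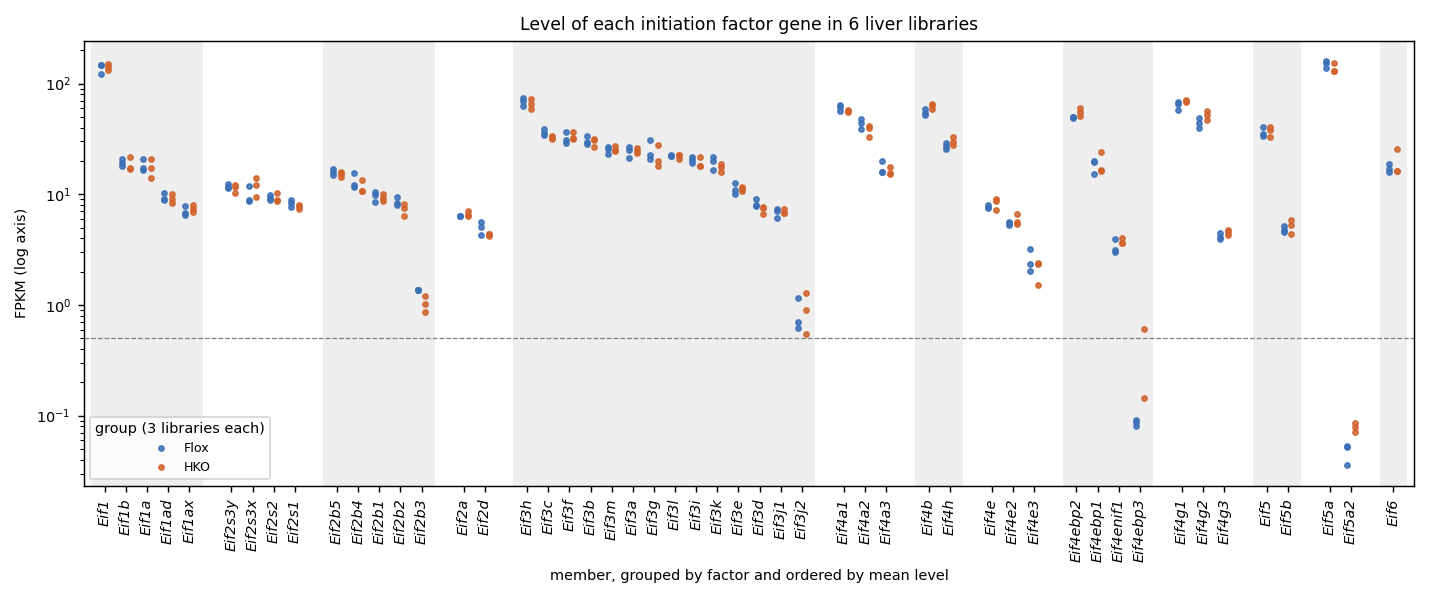
Level of each member in the 6 libraries in FPKM on a log axis (points, Flox left and HKO right), by factor and in order of mean level. Eif4e1b, at 0 in all libraries, and the 0 of Eif4ebp3 in HKO 2 cannot be drawn on this axis; the dashed line marks 0.5 FPKM, and Eif5a and Eif1 lie at the top near 144 and 140 FPKM.

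Of the 48 tested members, 6 had HKO libraries all above or all below the Flox libraries, which is 12.5% of them, beside 13.3% of all genes tested. This share was near that of all genes. Eif4b, Eif4g1 and Eif4ebp2 lay higher in HKO (6.25% of members, 6.06% of all genes), and Eif2b3, Eif3c and Eif3d lower (6.25% and 7.21%). Promoter sequence for 5 of these 6 is held by the RefSeq table of GRCm38.p6 and is printed as a description of their starts. Each line gives the 150 bases before the annotated start and the first 30 bases from it, 5′ to 3′ on the strand of the gene. Capitals mark motif matches on either strand. The letters searched were GGGCGG for the GC box, the site of Sp1-type factors. For the E-box, bound by factors such as MYC, they were CACGTG, which reads the same on both strands. For the core of ETS factor sites they were CCGGAA. The matches shown do not overlap each other.
Eif4b, chr15:102073623-102073802, plus strand: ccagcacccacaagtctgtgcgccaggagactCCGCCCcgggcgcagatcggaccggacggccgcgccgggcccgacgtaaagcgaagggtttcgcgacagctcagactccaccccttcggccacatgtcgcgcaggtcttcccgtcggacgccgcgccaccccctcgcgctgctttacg
Eif4g1, chr16:20672577-20672756, plus strand: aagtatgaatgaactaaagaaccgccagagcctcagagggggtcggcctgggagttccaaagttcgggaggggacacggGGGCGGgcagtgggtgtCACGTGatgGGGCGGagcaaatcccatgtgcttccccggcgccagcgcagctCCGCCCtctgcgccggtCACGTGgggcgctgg
Eif4ebp2, chr10:61452640-61452819, minus strand: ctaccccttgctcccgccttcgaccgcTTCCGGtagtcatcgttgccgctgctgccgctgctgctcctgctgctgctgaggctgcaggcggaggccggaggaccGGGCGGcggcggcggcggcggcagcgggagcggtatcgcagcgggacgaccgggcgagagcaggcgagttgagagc
Eif3c, chr7:126566337-126566516, minus strand: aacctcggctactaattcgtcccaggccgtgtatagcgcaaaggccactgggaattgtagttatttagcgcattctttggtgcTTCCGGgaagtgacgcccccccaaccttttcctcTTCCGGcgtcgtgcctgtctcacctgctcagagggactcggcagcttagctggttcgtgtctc
Eif3d, chr15:77970795-77970974, minus strand: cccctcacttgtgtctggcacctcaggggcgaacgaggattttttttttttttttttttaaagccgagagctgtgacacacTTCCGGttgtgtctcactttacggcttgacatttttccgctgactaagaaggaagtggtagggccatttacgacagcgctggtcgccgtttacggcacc

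The stretch of Eif4g1 held 5 motif matches, of which 2 were E-boxes, and it starts inside the gene as the deposited table bounds it (20668313 to 20692884). The stretch of Eif4b held 1 GC box, and that of Eif4ebp2 an ETS core and a GC box. The stretches of Eif3c and Eif3d showed ETS cores and no GC box or E-box, with 2 cores in Eif3c and 1 in Eif3d. Over the longer window both also held a GC box. Over the whole window of 250 bases before and 50 after a start, 39 of the 51 members matched the table by symbol. A GC box was found in 79.5% of the 39, beside 67.6% of the 8551 tested genes with a window and 38.2% of all 27025 genes with one. An ETS core was found in 51.3% of the members, 32.3% of tested genes and 16.7% of all, and an E-box in 25.6%, 12.1% and 8.09%. The CCAAT box, searched by those letters on both strands, was in 33.3%, 42.8% and 41.1%. The TATA box, searched as TATAAA, was in 10.3%, 9.15% and 15.7%. A run of C and at least 4 further C or T at the annotated start, the pattern of mRNAs whose translation follows growth signals, was found in 2 of the 39 members (Eif2s3x and Eif3f), beside 3.09% of tested genes. These matches are a description of letters, with no test, and they show no binding. Whether they go with the direction of a difference was not tested.

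**Figure D3:**
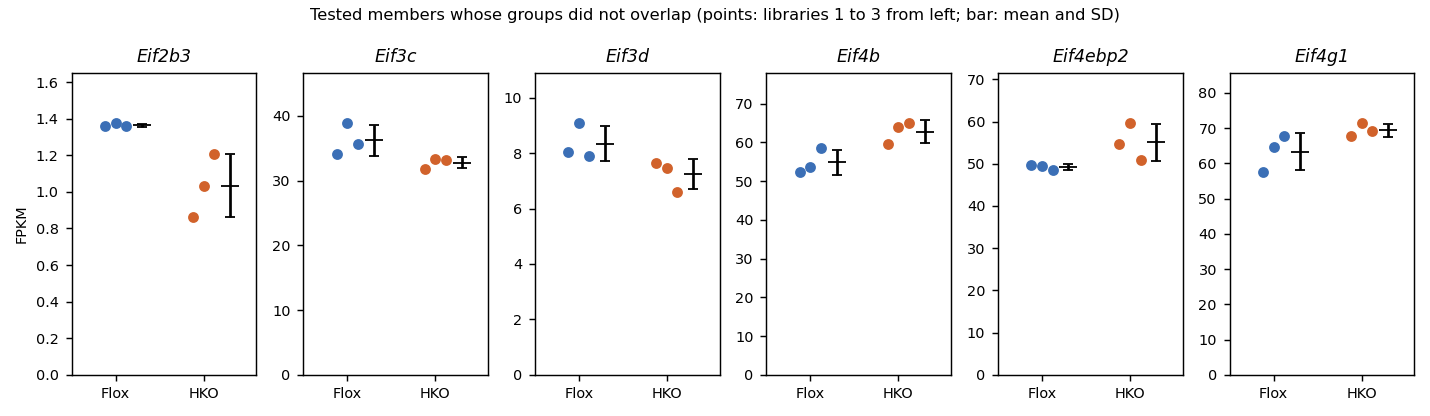
FPKM of the 6 tested members whose groups did not overlap, in each library (points, libraries 1 to 3 from left, each axis from 0) with the group mean and SD (bar, n = 3). The HKO points lie below all Flox points for Eif2b3, Eif3c and Eif3d and above them for Eif4b, Eif4ebp2 and Eif4g1, with adjusted p-values of 0.667 to 0.744 in limma.

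Among the cap-binding factors, the scaffolds had higher means in HKO. Eif4g1, the main scaffold that joins cap, helicase and eIF3, stood at 57.6, 64.8 and 67.7 FPKM in Flox and 67.7, 71.3 and 69.3 in HKO. The lowest HKO library lay just above the highest Flox library, and Flox 1 was the lowest of all. The log2 difference was 0.13 (SE 0.11, adjusted p = 0.744 in limma), and 0.07 without Flox 1. Eif4g2, a relative that lacks the cap-binding protein's site, and Eif4g3 had differences of 0.21 and 0.10 and overlapped between groups. Means were higher for all 3 genes under the deposited FPKM, TPM, quantile normalization, scaling by summed reads and limma's voom on recovered reads, though 0 of the 3 passed.

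The cap-binding protein gene itself was far below Eif4g1 and Eif4a1 in level. Eif4e was at 8.003, 7.73 and 7.49 FPKM in Flox and 7.26, 8.66 and 8.996 in HKO, so HKO 1 was the lowest and HKO 3 the highest of the 6 (log2 difference 0.09, adjusted p = 0.814 in limma). Its relative Eif4e2, which binds caps but not eIF4G, averaged 5.66 FPKM. Eif4e3 stood at 2.33, 2.03 and 3.22 FPKM in Flox and 2.35, 1.52 and 2.40 in HKO. These 6 values of Eif4e3 rest on 64 to 136 reads each and overlap between the groups, and 14.8% of its exon bases are shared with Gm20696. Eif4e1b, known from oocytes, had 0 reads in all 6 libraries, which allows up to 3 reads in each (counting error only).

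The inhibitors of eIF4E were measured at different depths. Eif4ebp2 stood at 49.7, 49.5 and 48.5 FPKM in Flox and 54.8, 59.5 and 50.8 in HKO, without overlap. The 3 Flox values lay close together, and HKO 2 was the highest (log2 difference 0.15, SE 0.106, adjusted p = 0.715 in limma). Eif4ebp1, a target of the stress factor ATF4, stood at 19.4, 20.1 and 15.3 FPKM in Flox and 24.1, 16.6 and 16.1 in HKO. HKO 1 alone lay above the Flox range, and without it the log2 difference turned from 0.04 to -0.14. For Eif4ebp3 the Flox libraries held 1 read each and the HKO libraries 8, 0 and 2, below the filter, and 67.3% of its exon bases are shared with a neighbouring transcript. Eif4enif1, which carries eIF4E into the nucleus and into RNA granules, averaged 3.56 FPKM. Compared per length, Eif4ebp2 was 6.37 ± 0.14 times the level of Eif4e in Flox and 6.69 ± 0.963 times in HKO (SD, n = 3), and Eif4ebp1 2.35 ± 0.281 and 2.34 ± 0.846 times.

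The helicase genes had lower means in HKO and their cofactors higher ones. Eif4a1, the main helicase gene, stood at 61.5, 64.6 and 56.6 FPKM in Flox and 55.6, 57.5 and 56.2 in HKO. HKO 2 lay above Flox 3, so the groups overlapped (log2 difference -0.11, adjusted p = 0.769 in limma). Its near relative Eif4a2 stood at 47.9, 39.2 and 43.6 FPKM in Flox and 33.2, 39.7 and 41.6 in HKO, again with overlap and with HKO 1 the lowest (-0.19, adjusted p = 0.719 in limma). Eif4a3, a core part of the exon junction complex, averaged 16.7 FPKM, with a difference of -0.09. Of the 3 genes, 3 were lower as deposited but only 1 under TPM and 2 under quantile normalization. With the median of all genes taken off, all 3 were lower under TPM (-0.08, -0.16 and -0.07), and under quantile normalization Eif4a1 was at 0.0035 and the other two lower. Eif4a1 has a pseudogene copy of 99.9% identity, so its reads are uncertain.

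Eif4b, the cofactor that raises helicase activity, stood at 52.5, 53.7 and 58.5 FPKM in Flox and 59.5, 64.1 and 64.9 in HKO. All HKO values lay above all Flox values, with Flox 3 and HKO 1 less than 1 FPKM apart (log2 difference 0.19, SE 0.105, 95% interval -0.06 to 0.44, adjusted p = 0.685 in limma). Eif4h, which shares this role, averaged 27.2 ± 1.57 FPKM in Flox and 30.2 ± 2.58 in HKO and overlapped. The mean of Eif4b was higher in HKO under all 5 scalings named above. The largest value was 0.37 under TPM, or 0.22 with the median of all genes taken off. With that median taken off, the largest was 0.30, under quantile normalization.

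Summed levels per factor, in FPKM as deposited, overlapped between the groups in 11 of the 13 factors. The 2 exceptions were eIF4A and the pair of eIF4B and eIF4H. Of all single genes tested 13.3% did not overlap, and no such share was computed for sums of genes. The 3 eIF4A genes summed to 125, 124 and 116 FPKM in Flox and 106, 113 and 113 in HKO. Eif4b and Eif4h together reached 78.1, 80.8 and 87.3 FPKM in Flox and 92.6, 93.6 and 92.9 in HKO. Sums under the other scalings were not computed, so the lack of overlap holds for FPKM as deposited only. Under TPM 2 of the 3 eIF4A genes had a higher mean in HKO. Their median log2 difference was then 0.07, or -0.08 with the median of all genes taken off. A ratio of FPKM within a library does not depend on a factor that scales the whole library. The level of Eif4b and Eif4h over that of Eif4a1 and Eif4a2 was 0.714, 0.778 and 0.872 in Flox and 1.04, 0.963 and 0.95 in HKO, without overlap. Its exact permutation p was 0.1, two-sided, the smallest that 3 against 3 libraries allow, and 0.433 adjusted over the 13 ratios computed. This ratio was chosen after its values were seen. Without overlap were also the ratio of Eif3h to Eif3d (8.26 ± 0.408 in Flox and 9.04 ± 0.352 in HKO) and that of Eif3c to Eif3a (1.49 ± 0.0929 and 1.33 ± 0.0463; SD, n = 3; same exact p). Eif3d and Eif3c by themselves did not overlap between the groups, so these ratios are no separate support.

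The 14 eIF3 genes lay near 0. Their median log2 difference was -0.03, with 6 higher and 8 lower as deposited, and with 12 higher and 2 lower under TPM. With the median of all genes taken off, their median was -0.02 as deposited and 0.0015 under TPM. The eIF3 subunits join in 1 complex. Their levels per deposited length ran from 67.2 FPKM for Eif3h to 6.91 for Eif3j1 and 0.869 for Eif3j2. That length was 1612 bases for Eif3h and 5830 for Eif3j1, with 1686 to 2057 and 528 to 739 reads per library. The spread of FPKM thus depends in part on length, and an imbalance within the complex was not tested. Eif3h, a subunit of the outer module, stood at 69.95, 74.5 and 62.2 FPKM in Flox and 71.9, 65.1 and 59.4 in HKO, with overlap and a log2 difference of -0.07. Eif3j1 and Eif3j2 are copies of each other at 97% identity or more, so reads could be split between them.

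The core subunit gene Eif3c stood at 34.2, 38.8 and 35.7 FPKM in Flox and 31.7, 33.3 and 33.2 in HKO. Its groups did not overlap, with Flox 1 and HKO 2 less than 1 FPKM apart (log2 difference -0.14, SE 0.0997, adjusted p = 0.722 in limma), and under TPM the difference was 0.04, or -0.11 with the median of all genes taken off. Eif3d, a subunit that can itself bind caps of some mRNAs, stood at 8.05, 9.07 and 7.90 FPKM in Flox and 7.64, 7.47 and 6.61 in HKO. Flox 2 was the highest and HKO 3 the lowest (log2 difference -0.18, SE 0.101, 95% interval -0.42 to 0.06, adjusted p = 0.685 in limma). Eif3d shares 43.3% of its exon bases with the antisense Gm17638, which the library kit cannot separate by strand. Gm17638 was given 0 to 3 reads per library.

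Eif3g, the subunit that assists scanning, had the widest interval of the family, -0.66 to 0.30. It was highest in Flox 2 and HKO 1, at 30.6 and 27.9 FPKM, and between 17.9 and 22.8 in the other 4 libraries. The other eIF3 genes, Eif3a, Eif3b, Eif3e, Eif3f, Eif3i, Eif3k, Eif3l and Eif3m, had differences from -0.15 to 0.06, and each overlapped between the groups.

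The genes of eIF2B had the lowest median of the factors with at least 2 tested members. All 5 had lower means in HKO as deposited (median log2 difference -0.15), with 3 of 5 lower when scaled by summed reads, 4 under quantile normalization and 2 under TPM. With the median of all genes taken off, the median of the 5 was -0.15 as deposited, -0.13 under TPM, -0.13 by summed reads, -0.11 under quantile normalization and -0.15 with voom. Eif2b3, the gamma subunit, stood at 1.36, 1.37 and 1.36 FPKM in Flox and 0.865, 1.03 and 1.21 in HKO, from 100 to 149 reads per library. The Flox values were nearly equal and the HKO values spread below them (log2 difference -0.22, SE 0.0991, 95% interval -0.45 to 0.01). It had the smallest unadjusted p of all members, 0.0608, and an adjusted p of 0.667 in limma. Eif2b5, the catalytic epsilon subunit, was the most abundant and stood at 15.8, 16.8 and 14.97 FPKM in Flox and 15.3, 15.9 and 14.4 in HKO, with overlap. Eif2b2 and Eif2b4 had differences of -0.20 and -0.15 and Eif2b1 of -0.04.

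In eIF2 itself, whose alpha subunit is the target of the stress kinases, all 4 genes overlapped between the groups. Eif2s1 (alpha) averaged 8.27 ± 0.554 FPKM in Flox and 7.71 ± 0.288 in HKO, and Eif2s2 (beta) 9.31 ± 0.502 and 9.25 ± 0.806 (SD, n = 3). The gamma subunit has an X-linked and a Y-linked gene. Eif2s3x stood at 8.93, 8.71 and 11.9 FPKM in Flox and 9.52, 13.9 and 12.1 in HKO. Its high libraries were Flox 3, HKO 2 and HKO 3, so the groups overlapped (log2 difference 0.24, SE 0.168, adjusted p = 0.719 in limma), and a pseudogene copy of 100% identity makes its reads uncertain.

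The Y-linked Eif2s3y stood at 11.7, 12.4 and 11.5 FPKM in Flox and 10.2, 12.0 and 11.7 in HKO, so all 6 libraries held RNA of males. Its log2 difference was -0.07. The Y copy reached 1.23 ± 0.238 times the level of the X copy in Flox and 0.966 ± 0.0998 times in HKO (exact permutation p = 0.2, two-sided), with overlap. Both copies together gave 21.7 ± 1.46 and 23.1 ± 3.16 FPKM.

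Other routes to the initiator tRNA were lower in level. Eif2a, which can deliver tRNA without GTP, stood at 6.39, 6.41 and 6.40 FPKM in Flox and 6.43, 6.34 and 6.99 in HKO. The 3 Flox libraries were nearly equal, and HKO 1, just above them, and HKO 3 lay higher while HKO 2 lay lower (log2 difference 0.04). Eif2d, which also serves in ribosome recycling, stood at 5.08, 5.60 and 4.24 FPKM in Flox and 4.22, 4.38 and 4.39 in HKO. Flox 3 lay within the HKO range, so the groups overlapped (log2 difference -0.16, adjusted p = 0.717 in limma).

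Among the factors of start codon choice, 1 gene was far more abundant than the others. Eif1, which guards against wrong start codons, stood at 147, 148 and 123 FPKM in Flox and 149, 134 and 141 in HKO, with Flox 3 the lowest (log2 difference 0.03). It has 4 pseudogene copies of up to 98.3% identity. Its relative Eif1b averaged 19.0 FPKM, and Eif1 was 7.18 ± 0.475 times as high in Flox and 7.60 ± 0.702 times in HKO. Eif1a and Eif1ax encode eIF1A, which works with eIF1 in scanning. Eif1ax stood at 7.87, 6.43 and 6.76 FPKM in Flox and 7.36, 6.91 and 8.05 in HKO, with overlap (0.08, adjusted p = 0.843 in limma). Eif1a, at 17.8 FPKM on average, and Eif1ad, a relative of eIF1A, at 9.26, had differences of -0.08 and -0.04 and overlapped.

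Factors of the last steps of initiation showed no separation either. Eif5, which triggers GTP hydrolysis on eIF2, stood at 35.2, 33.9 and 40.2 FPKM in Flox and 33.2, 40.8 and 38.3 in HKO, with a difference of 0.04. Eif5b, which joins the ribosomal subunits, stood at 4.80, 4.55 and 5.20 FPKM in Flox and 4.42, 5.85 and 5.26 in HKO (0.07, adjusted p = 0.862 in limma). For both genes HKO 1 was the lowest library. Exons of Eif5b share 16.8% of their bases with Rev1 on the other strand.

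Eif6, which keeps free large subunits apart from small ones, showed a single high library. It stood at 16.0, 18.7 and 16.8 FPKM in Flox and 25.5, 16.3 and 16.3 in HKO. HKO 1 lay far above the other 5 libraries, and without it the log2 difference turned from 0.14 to -0.07. The pattern resembles that of Eif4ebp1, with HKO 1 highest in both, and HKO 1 had the highest Kupffer marker sum (359.9 FPKM); a link between these values was not tested.

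Eif5a, the hypusine-carrying factor that also acts in elongation, was the most abundant member. It stood at 155, 159.9 and 138 FPKM in Flox and 152, 129 and 129 in HKO. HKO 2 and HKO 3 lay below all Flox libraries and HKO 1 within their range (log2 difference -0.14, adjusted p = 0.753 in limma), and under TPM the difference was 0.03, or -0.11 with the median of all genes taken off. Its paralog Eif5a2 had 3 to 4 reads per Flox library and 6 to 8 per HKO library, without overlap. These are near the limit of 3 reads that a count of 0 allows, and the gene was not tested.

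**Figure D4:**
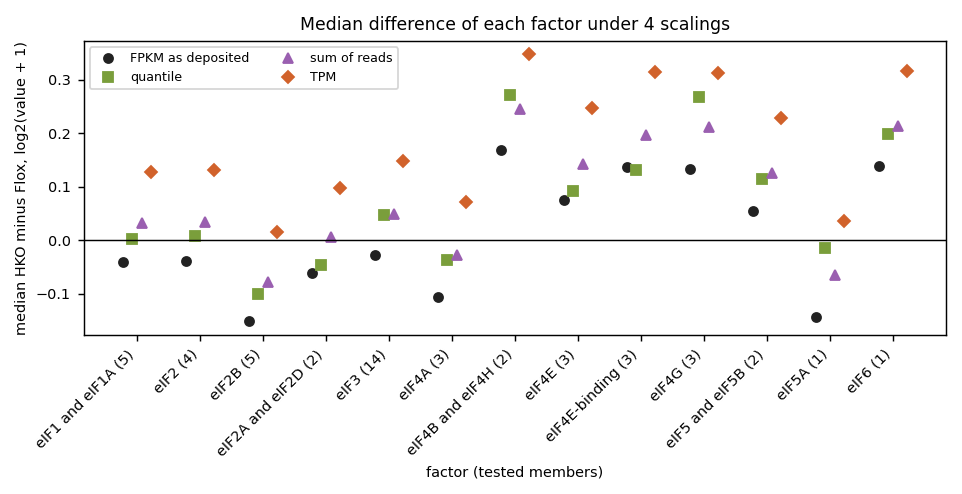
Median difference between HKO and Flox of each factor's tested members (number in brackets) on the log2(value + 1) scale under 4 scalings of the libraries. TPM moves all factors upward together, while eIF4B and eIF4H, eIF4E, the eIF4E-binding genes, eIF4G, eIF5 and eIF5B, and eIF6 lie above 0 under all 4.

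TPM and scaling by summed reads moved the members mostly together with all genes, while quantile normalization moved the members further. TPM moved the median difference of all genes tested by 0.152, and scaling by summed reads by 0.0568. Under TPM 41 of the 48 members were higher in HKO, and 26 once the median over all genes was taken off. Quantile normalization moved the median of all genes by only 0.0185, while the median of the members went from -0.02 to 0.045. With the median of all genes taken off, 28 members were higher under it, beside 23 as deposited. As the values stand, the sign was the same under all 5 scalings for 30 members; the shifts were mostly upward, so members with lower means were those that could turn. With the median of all genes taken off, 43 members kept 1 sign, 23 of them higher and 20 lower, and the exceptions were Eif2s2, Eif3b, Eif3h, Eif3l and Eif4a1. No member passed under any of the 5 scalings.

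Genes that control or follow the initiation factors were read from lists of related genes, in FPKM as deposited only. Of all genes tested, 51.2% had a lower mean in HKO and 13.3% did not overlap between the groups. Of 9 tested genes that set eIF2 phosphorylation, 5 had a higher and 4 a lower mean and 0 passed. The median log2 difference was 0.00, and the haem-regulated kinase gene Eif2ak1 averaged 8.32 ± 0.617 FPKM in Flox and 7.75 ± 0.462 in HKO. Of 10 tested genes of ATF4 and its targets, 2 were higher and 8 lower and 0 passed (median -0.05). In 1 of them all HKO libraries lay below all Flox libraries, and in 0 above. Atf3, a stress-induced factor, averaged 2.63 ± 0.828 (Flox) and 1.37 ± 0.355 FPKM (HKO; SD, n = 3), without overlap (adjusted p = 0.648 in limma).

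Of 21 genes of cap and mTOR control, 13 were higher and 8 lower and 0 passed (median 0.05). All HKO libraries lay above all Flox libraries in 4 of these genes and below them in 2. Pdcd4, which sequesters eIF4A, averaged 46.9 ± 6.83 (Flox) and 31.8 ± 1.85 FPKM (HKO), without overlap (log2 difference -0.54, adjusted p = 0.58 in limma). Pabpc1, the main poly(A)-binding protein gene and a partner of eIF4G, averaged 36.0 ± 1.74 and 42.3 ± 1.98 FPKM, also without overlap. Of 12 initiation helpers without an eIF name, 6 were higher and 6 lower and 0 passed, among them Sbds, which helps release eIF6, at 27.0 ± 2.10 and 22.3 ± 2.76 FPKM.

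The factors of elongation and release that follow initiation had mostly higher means in HKO as deposited. Of 11 tested, 9 were higher and 2 lower (median 0.16) and 0 passed, beside 51.2% lower of all genes tested. In 3 of the 11 all HKO libraries lay above all Flox libraries, and in 0 below. Of all genes tested, 6.06% lay above in this way. Eef2, which moves the ribosome along the mRNA, averaged 414 ± 17.99 (Flox) and 545 ± 38.7 FPKM (HKO), and Eef1a1, which delivers tRNAs, 1566 ± 69.9 and 1917 ± 72.1, both without overlap (adjusted p = 0.648 and 0.651 in limma). Of 9 mitochondrial translation factors, 4 were higher and 5 lower (median -0.08) and 0 passed, with Tufm at 50.1 ± 5.17 and 43.1 ± 2.94 FPKM. Of 6 tested genes in a list of stress granule genes, 4 were higher and 2 lower and 0 passed. That list holds the deleted gene G3bp1 itself, which had the lowest difference.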

How the data were processed

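RNA of 6 whole-liver libraries was sequenced after NEBNext Ultra preparation, per the labels' protocols. The authors deposited 1 table of FPKM values per gene and library. Per the submitters' processing notes the builds were GRCm38 and mm10. Aligner and counter names were not given in the sources used here. FPKM times length was a whole multiple of 1 step (within 0.02 reads for 100% of values above 0), which gave recovered reads. At 1 kb, 14.9 to 18.5 reads made 1 FPKM.

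Because FPKM are not counts, limma 3.58.1 (R 4.3.3, trend and robust moderation, statmod 1.5.0) was run on log2(FPKM + 1), pseudocount 1, two-sided, for genes of at least 0.5 FPKM in at least 3 libraries. Intervals are 95% from that fit, and reported differences understate those of low genes. Alternatives were 2 other pseudocounts, 2 other filters, TPM, quantile normalization, summed reads, voom, array weights, the replicate block and each library left out. The limma step was tested on simulated data with planted changes far larger than any member's difference. That test does not bear on differences as small as those of the members.

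Members' values in every library are given for those with an unadjusted p under 0.05 or without overlap, for the most abundant and, where none of these, the lowest-p member of each factor, and for fixed paralogs. Other members and non-members were named, with means or differences, after their values were seen. Members and lists were chosen with earlier results of these data known. Copies (blastn 2.17.0, at least 97% identity over at least 80% of length) and exon overlaps came from GENCODE M21, which holds 99.8% of the gene identifiers. 9 members had a copy and 8 an exon overlap of at least 10%.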

Additional observations from a re-analysis of the deposited data

How the results depend on the processing

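The count of members that passed was 0 under all 16 alternatives, with smallest adjusted p-values among members of 0.145 to 0.989 in limma. The count of all genes called, 1 as reported, was 0 with no filter, 2 at a mean of at least 5 FPKM, 3 with voom and 3 with array weights, and 0 to 13 with 1 library left out (13 without HKO 1 and 0 without Flox 1, Flox 2, HKO 2 or HKO 3). The number of members with a lower mean, 25 as reported, was 7 under TPM and 16 scaled by summed reads, and 23 to 31 with 1 library left out. Their median difference was 0.15 under TPM, 0.045 under quantile normalization and 0.056 by summed reads, and -0.05 to 0.01 with 1 library left out. G3bp1 passed with voom (-0.96, adjusted p = 0.037) and array weights (-0.81, adjusted p = 0.0275). Its adjusted p ranged from 0.0275 to 0.838.

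Signs turned for some members, none of which passed. Under TPM 18 members, by summed reads 9 and under quantile normalization 7 turned from lower to higher, with the median of all genes moved upward by 0.152, 0.0568 and 0.0185. With that median taken off, those named below for TPM and summed reads were again lower. Under quantile normalization Eif3h (0.072) and Eif4a1 (0.0035) then stayed higher, and Eif2b5 (-0.012) was again lower. Of the members with values in every library, those turned under TPM were Eif2s3y (0.10), Eif2b5 (0.11), Eif3h (0.11), Eif3c (0.035), Eif4a1 (0.0703) and Eif5a (0.035). Under quantile normalization they were Eif2b5 (0.00093), Eif3h (0.085) and Eif4a1 (0.017), and by summed reads Eif2s3y (0.0053), Eif2b5 (0.017) and Eif3h (0.0057). With array weights, where the cause was not tested, they were Eif1 (-0.053), Eif1ax (-0.0061) and Eif4ebp1 (-0.12). With 1 library left out, Eif1 ran from -0.059 to 0.071, Eif2s3y from -0.11 to 0.00019, Eif2a from -0.0029 to 0.059, Eif4ebp1 from -0.14 to 0.135, Eif5 from -0.026 to 0.12, Eif5b from -0.0058 to 0.16 and Eif6 from -0.068 to 0.24.

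With the replicate block 0 genes and 0 members were called. Deviations of same-numbered libraries correlated at 0.0215, 0.015 and 0.0704 across genes, and those of other pairs at -0.0999 to 0.0736. No pairing by the labels' numbers was thus seen, though 3 libraries per group cannot show that there was none. Levels under 1 FPKM rest on few reads, such as 24 to 54 for Eif3j2.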
